A study of Mus musculus with 2 samples.

Results

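Hgf, Kit and Kitl are 3 of the 31057 gene rows of the deposited tables, taken by symbol, and each is described here in every class of cell that could be named. Hgf encodes hepatocyte growth factor, Kit encodes a receptor tyrosine kinase, and Kitl encodes the ligand of that receptor, stem cell factor. The libraries came from C57BL/6 mice aged 16 weeks, and control and cirrhosis mice alike carried Cdh5-Cre+ and mTmG +/+. In that reporter a Cre driven by the endothelial Cdh5 promoter turns on membrane GFP, so any cell that ever used the promoter is marked. Mice of the cirrhosis group breathed vaporized carbon tetrachloride over 12 weeks, and control mice are labelled only as such. Live GFP-positive cells of 3 pooled livers per group were sorted from the non-parenchymal fraction, and 1 droplet library was made per group. With 1 library per group there is no replicate error, so no test was made between conditions. Every interval given is a 95% interval that covers counting error only.

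The control library held 5642 barcodes and 45767322 unique molecular identifiers (UMIs), and the cirrhosis library held 8327 barcodes and 77339928 UMIs. After filtering, 4953 control and 7191 cirrhosis barcodes were kept, of which 16 sequences occurred in both libraries. Cells were clustered without Hgf, Kit and Kitl and named from marker lists. Sinusoidal endothelial cells of the liver (LSECs), which line its capillaries and carry open pores, made up 2493 control and 2456 cirrhosis cells. Those LSEC-like cells held Stab2, an endothelial scavenger receptor, at 2329 and 1662 CPM (UMIs of a gene per 1000000 UMIs of the class), and Pecam1, a marker of all endothelium, at 636 and 696 CPM. They were divided into a pericentral class near the central vein (343 control and 453 cirrhosis cells), a periportal class near the portal tract (580 and 510 cells) and an intermediate class (1570 and 1493 cells). The sort also let through cells without endothelial identity, among them 60 control and 1295 cirrhosis hepatocyte-like cells. Clusters that stayed unnamed or mixed the transcripts of several types held 32.0% of control and 21.3% of cirrhosis cells.

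HGF is secreted as an inactive chain that serine proteases cut into its active form, and it then binds MET, its receptor on hepatocytes and other epithelial cells, where it drives growth, survival and migration. KIT ligand is made as a membrane-bound protein that can be shed, and its binding to KIT keeps haematopoietic stem cells, mast cells, melanocytes and germ cells alive. In the liver, HGF is known as a product of stellate and endothelial cells during regeneration, and KIT has been described on part of the sinusoidal endothelium.

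On GRCm38 in the GENCODE M21 annotation, Hgf (ENSMUSG00000028864.7) lies on chromosome 5 from 16553495 to 16620152, Kit (ENSMUSG00000005672.12) on the same chromosome from 75574916 to 75656722, and Kitl (ENSMUSG00000019966.18) on chromosome 10 from 100015630 to 100100416, all on the plus strand. Gm42975 and Gm43489, 2 annotated genes that overlap Hgf on the same strand, had 0 UMIs in these tables. Promoter windows of 300 bases around the gene start were taken from RefSeq (GRCm38.p6), in which all 3 genes were found. The stretches shown are those that distinguish the start regions, with the letters GGGCGG and TATAAA in capitals. For Hgf and Kit they are limited to bases before the first annotated start. The Kitl stretch is a short run that holds these letters, before the RefSeq start (100015821) but inside the gene by the GENCODE start:
Hgf, chr5:16553245-16553494, plus strand: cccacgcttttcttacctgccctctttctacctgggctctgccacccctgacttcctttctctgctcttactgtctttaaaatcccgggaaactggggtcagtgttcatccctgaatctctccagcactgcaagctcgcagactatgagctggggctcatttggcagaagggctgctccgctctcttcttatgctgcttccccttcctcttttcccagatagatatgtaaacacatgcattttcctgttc
Kit, chr5:75574737-75574915, plus strand: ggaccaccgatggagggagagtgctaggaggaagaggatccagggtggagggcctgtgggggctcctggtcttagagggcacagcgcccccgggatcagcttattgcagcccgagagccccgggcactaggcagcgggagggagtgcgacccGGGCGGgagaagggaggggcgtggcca
Kitl, chr10:100015776-100015801, plus strand: GGGCGGGCGGgagggagctgTATAAA
On both strands of the whole windows, GGGCGG, the GC box, occurred 0 times for Hgf, 1 time for Kit and 3 times for Kitl, where copies may overlap, and 35.7% of 32851 mouse promoter windows held it. TATAAA, the TATA box, was found for Kitl alone of the 3 genes, starting 25 bases before the RefSeq start, and 13.6% of all windows held it. GATAA, a core letter string of GATA factor sites, was in none of the 3 windows and in 25.4% of all windows. The G and C content was 51.3% for the Hgf window, 69.0% for Kit and 68.7% for Kitl, beside a median of 52.7% over all windows. These are matches of letters, and they were not related to the levels.

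In all LSEC-like cells pooled, Hgf was higher in the cirrhosis library, Kit was lower, and Kitl was lower by a small amount. Hgf stood at 70.4 CPM in control (interval 66.8 to 74.1) and 199.9 CPM in cirrhosis (194.5 to 205), a 2.84-fold difference and a log2 ratio of 1.51 (1.42 to 1.59). Kit stood at 384 CPM in control (376 to 393) and 247 CPM in cirrhosis (241 to 253), which is 1.55-fold lower, with a log2 ratio of -0.64 (-0.68 to -0.59). Kitl stood at 144 CPM in control (139 to 149.7) and 122 CPM in cirrhosis (118 to 127), which is 1.18-fold lower, with a log2 ratio of -0.24 (-0.31 to -0.17). The intervals of control and cirrhosis did not overlap for any of the 3 genes, and the 6864 genes whose mean reached 20 CPM had a median log2 ratio of -0.04. UMIs were counted at the 3' end, and levels are compared within a gene and not between genes.

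Of the 3 genes, Hgf alone differed by 2-fold or more between the libraries in pooled LSEC-like cells. In that comparison 1.54% of genes at a mean of 20 CPM were at least 2-fold higher in cirrhosis and 1.73% at least 2-fold lower. The ratio of Hgf was above that of 99.3% of the 6864 genes, that of Kit above 4.37% and that of Kitl above 23.0%. The same held by zone: Hgf was the single member past 2-fold higher and none was past 2-fold lower in the pericentral class (backgrounds 2.04% higher and 3.01% lower), the intermediate class (1.38% and 1.77%) and the periportal class (1.6% and 1.57%).

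**Figure D1:**
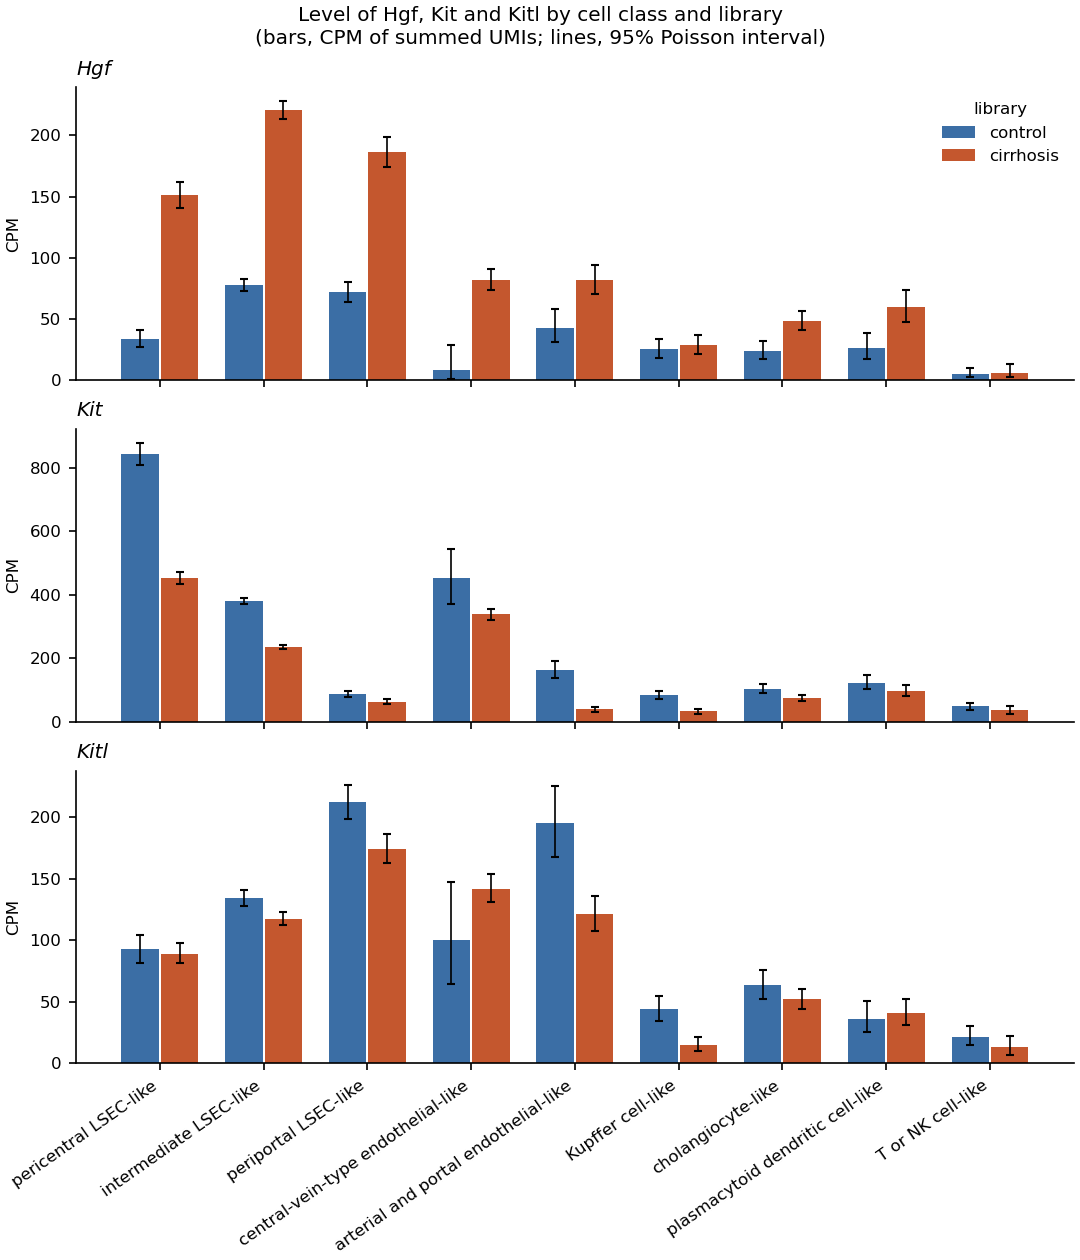
Level of each gene (CPM of summed UMIs, linear axes from 0) in 9 cell classes, with blue bars for the control library, orange bars for the cirrhosis library and lines for the 95% Poisson interval. Hgf bars are taller in cirrhosis in the 5 endothelial classes, of which central-vein-type cells number 25 in control, and Kit bars are tallest in pericentral LSEC-like cells at 844 CPM in control and 453 CPM in cirrhosis.

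Hgf, the ligand of MET, was lowest in the pericentral class of control liver and was higher in cirrhosis in every zone. In control it stood at 33.1 CPM in pericentral (26.7 to 40.6), 77.7 CPM in intermediate (73.1 to 82.6) and 71.7 CPM in periportal cells (63.9 to 80.3). The last pair of intervals overlapped, while the pericentral level lay below both, at a log2 ratio to periportal of -1.12 (-1.47 to -0.78), which was -0.77 with zones set by 3 equal parts of a marker score. In cirrhosis Hgf stood at 151 CPM in pericentral (141 to 162), 221 CPM in intermediate (213 to 228) and 186 CPM in periportal cells (174 to 199). These 3 levels did not overlap, and the pericentral level was again the lowest, with a log2 ratio to periportal of -0.30 (-0.44 to -0.16). In cells with 0 UMIs of stellate markers that ratio was -0.18 (-0.42 to 0.07), an interval that includes 0.

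The ratio of cirrhosis over control for Hgf was thus largest in the zone that began lowest. The log2 ratio was 2.19 in pericentral cells (1.88 to 2.51, 4.56-fold), 1.50 in intermediate cells (1.40 to 1.61, 2.84-fold) and 1.38 in periportal cells (1.19 to 1.57, 2.60-fold). The pericentral interval did not overlap the other 2. That difference between zones has no replicate test, and its size depended on how zones were set. By class, the log2 ratio of pericentral over periportal was -1.12 in control and -0.30 in cirrhosis. With 3 equal parts of the marker score it was -0.77 and -0.44, a smaller change between the libraries.

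Kit, the receptor, had the steepest zonation of the 3 genes and was lower in cirrhosis in every zone. In control it stood at 844 CPM in pericentral (810 to 879), 381 CPM in intermediate (370.3 to 391) and 88.0 CPM in periportal cells (79.2 to 97.5), so that pericentral cells held 9.59-fold more than periportal cells. In cirrhosis the levels were 453 CPM in pericentral (435 to 471), 235 CPM in intermediate (228 to 243) and 63.2 CPM in periportal cells (56.3 to 70.6), a 7.17-fold difference between the outer zones. The order of zones was the same in both libraries and no neighbouring zones overlapped. The log2 ratio of pericentral over periportal was 3.26 in control (3.10 to 3.42) and 2.84 in cirrhosis (2.67 to 3.02), and with zones set by 3 equal parts of the marker score it was 2.20 and 1.29.

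Cirrhosis over control, the log2 ratio of Kit was -0.90 in pericentral (-0.98 to -0.82), -0.69 in intermediate (-0.75 to -0.63) and -0.48 in periportal cells (-0.70 to -0.26). In pericentral cells this was a difference of 1.86-fold, the largest of the 3 zones. Kit was also among the 10 leading genes of the pericentral cluster although it had no part in the clustering.

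Kitl, the ligand of KIT, ran against Kit along the lobule, being highest in the periportal class of both libraries. In control it stood at 92.6 CPM in pericentral (81.7 to 105), 134 CPM in intermediate (128 to 141) and 212 CPM in periportal cells (198 to 227). In cirrhosis it stood at 89.2 CPM in pericentral (81.3 to 97.6), 117 CPM in intermediate (112 to 123) and 174 CPM in periportal cells (163 to 186). Neighbouring zones did not overlap in either library, and the log2 ratio of pericentral over periportal was -1.20 in control (-1.40 to -0.995) and -0.97 in cirrhosis (-1.13 to -0.80). Between the libraries Kitl differed little: its log2 ratio was -0.05 in pericentral (-0.28 to 0.17, an interval that includes 0), -0.19 in intermediate (-0.29 to -0.10) and -0.28 in periportal cells (-0.42 to -0.15).

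Counted at 2-fold between the outer zones, Kit was higher in pericentral cells and Hgf and Kitl were higher in periportal cells of the control library, where 1.61% of genes at a mean of 20 CPM were at least 2-fold higher pericentrally and 1.24% periportally. With zones set by 3 equal parts of the score, Hgf (log2 -0.77) and Kitl (log2 -0.83) no longer reached 2-fold there. In cirrhosis Kit alone passed 2-fold towards pericentral cells (background 1.45%) and none passed it towards periportal cells (background 1.49%), where Kitl was 1.95-fold and Hgf 1.23-fold higher.

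**Figure D2:**
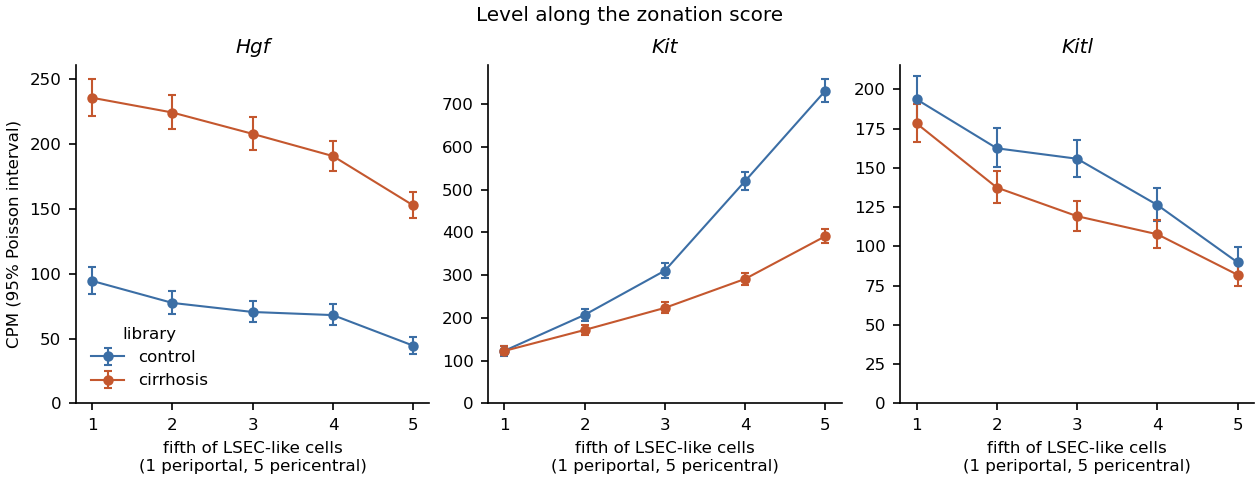
CPM of each gene (vertical axes from 0, lines for the 95% Poisson interval) in 5 equal bins of the LSEC-like cells of each library, ordered by the share of pericentral among all zone marker UMIs, with bin 1 the most periportal and bin 5 the most pericentral. Kit climbs from 123 to 732 CPM across the control bins and from 123 to 391 CPM across the cirrhosis bins, while Hgf and Kitl descend in both libraries.

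LSEC-like cells of each library, as taken from the clusters, were also ordered by the share of pericentral markers among all zone marker UMIs. They were divided into 5 equal bins. From the periportal to the pericentral end, Kit rose and Hgf and Kitl fell in both libraries, as between the outer zones. Unlike in the periportal class, the Kit intervals of the libraries overlapped in the first, most periportal bin. Hgf of cirrhosis was highest in that bin, whereas by zone it was highest in intermediate cells. Kit stood at 123 CPM in the most periportal bin of both libraries, and the libraries differed more towards the central vein, reaching 732 CPM in control (705 to 759) and 391 CPM in cirrhosis (375 to 408) in the last bin. Hgf went from 94.4 to 44.5 CPM in control and from 235 to 153 CPM in cirrhosis, from the first to the last bin. Kitl went from 194 to 89.7 CPM in control and from 178 to 81.8 CPM in cirrhosis. The score is built from markers that themselves differ between the libraries, with a median of 3.85% in the first control bin and 12.4% in the first cirrhosis bin, so that a given bin need not be the same place in both livers. The markers in the score did not all differ in the same direction. Of the pericentral ones, Wnt2 stood at 335 CPM in control and 156 CPM in cirrhosis LSEC-like cells, and Thbd at 168 and 341 CPM. Of the periportal ones, Ltbp4 stood at 378 and 162 CPM and Dll4 at 154 and 97.7 CPM.

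The share of cells with a UMI depends on depth as well as level. Before any correction for depth, Hgf was found in 35.9% of control and 75.5% of cirrhosis LSEC-like cells, Kit in 72.0% and 69.8%, and Kitl in 57.0% and 61.2%. The median depth was 7399 UMIs in control and 10111 in cirrhosis cells, so each cell was thinned at random to 3000 UMIs and 40 control and 19 cirrhosis cells below that depth were left out. After thinning, Hgf was found in 18.1% of control (16.6 to 19.7) and 41.6% of cirrhosis cells (39.6 to 43.6), Kit in 54.0% (52.0 to 56.0) and 42.4% (40.5 to 44.4), and Kitl in 32.7% (30.9 to 34.6) and 29.6% (27.8 to 31.5). At equal depth Kit was thus found in fewer cirrhosis than control cells, and the intervals of Kitl overlapped.

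By zone, thinned pericentral cells held Kit in 89.6% of 335 control cells and 68.8% of 452 cirrhosis cells, and periportal cells held it in 18.7% of 568 and 13.4% of 501. Among the cells with Kit, the mean was 2.98 UMIs in control and 1.99 in cirrhosis pericentral cells. At a fixed depth a lower level lowers both the share and this mean, so the 2 are not separate results. Hgf was found in 8.36% of thinned pericentral control cells and 33.0% of cirrhosis cells, with a mean of 1.04 and 1.36 UMIs in positive cells. Kitl was found in 21.8% and 18.8% of pericentral, and in 43.5% and 42.9% of periportal cells.

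**Figure D3:**
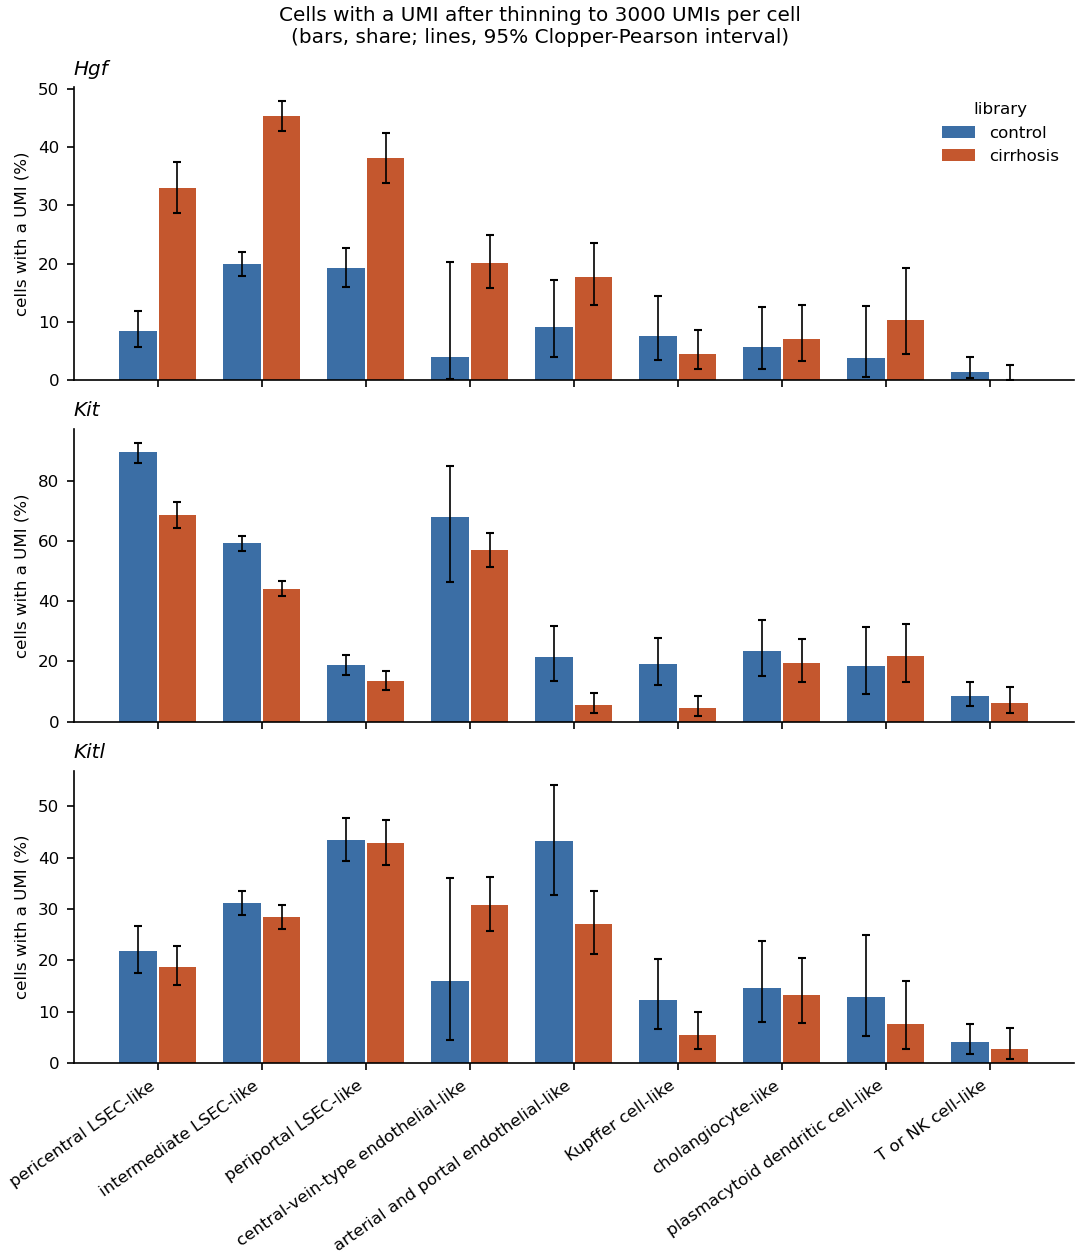
Share of cells with at least 1 UMI of each gene (percent, axes from 0) after thinning every cell to 3000 UMIs, in the same 9 classes, with blue bars for control, orange bars for cirrhosis and lines for the 95% Clopper-Pearson interval. Hgf was found in 45.4% of intermediate cirrhosis cells and 19.9% of intermediate control cells, and in 0.0% and 1.37% of T or NK cell-like cells of cirrhosis and control.

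Receptor and ligand were found in the same cells about as often as in cells without the other. In intermediate control cells at 3000 UMIs, Kitl was seen in 31.4% of 919 cells with Kit (28.5 to 34.6) and 30.7% of 631 cells without it (27.2 to 34.5). In intermediate cirrhosis cells the shares were 27.6% of 656 (24.2 to 31.2) and 29.1% of 828 (26.0 to 32.3). Hgf was seen in 184 of the 919 control cells with Kit and 124 of the 631 without, and in 43.8% and 46.6% of cirrhosis cells. In pericentral cirrhosis cells Hgf was seen in 35.7% of 311 cells with Kit (30.4 to 41.3) and 27.0% of 141 cells without (19.8 to 35.1), and these intervals overlapped. The intervals also overlapped for Hgf and Kitl in the other comparisons made within pericentral and intermediate cells.

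Endothelium of larger vessels held the 3 genes in other proportions. Arterial and portal endothelial-like cells, 90 in control and 217 in cirrhosis, had Hgf at 42.8 CPM (30.7 to 58.0) and 81.5 CPM (70.5 to 93.7), a log2 ratio of 0.93 (0.44 to 1.45). Kit stood there at 163 CPM in control (138 to 190.3) and 38.7 CPM in cirrhosis (31.3 to 47.3), 4.21-fold lower, and this log2 ratio of -2.07 (-2.46 to -1.69) was the lowest of Kit in any endothelial class with 50 cells per library. Kitl stood at 195 CPM (168 to 225) and 121 CPM (108 to 136), a log2 ratio of -0.68 (-0.95 to -0.41). In control Kit was 1.85-fold higher in these vessels than in periportal cells, and in cirrhosis it was 1.63-fold lower. Before thinning, 32 of the 90 control cells and 34 of the 217 cirrhosis cells held Kit. The mast cell and basophil genes Fcer1a, Cpa3 and Ms4a2 had 9, 3 and 1 UMIs in the control class and 0 in cirrhosis. Wnt2 stood there at 127 and 21.4 CPM, and Clec4f, a Kupffer cell marker, at 29.2 and 6.17 CPM. Whether the make-up of the class bears on the Kit ratio was not tested.

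Central-vein-type endothelial-like cells, led by Rspo3 and Wnt9b, numbered 25 in control and 309 in cirrhosis, so the control values rest on few cells. In cirrhosis they had Hgf at 82.2 CPM (73.8 to 91.1), Kit at 339 CPM (322 to 357) and Kitl at 142 CPM (131 to 154). Beside pericentral LSEC-like cells of that library, Hgf was 1.84-fold lower, Kit 1.34-fold lower and Kitl 1.59-fold higher. In the 25 control cells Hgf had 2 UMIs, or 7.99 CPM (0.97 to 28.9), Kit stood at 451 CPM (372 to 543) and Kitl at 99.9 CPM (64.6 to 147). Lymphatic endothelial-like cells, 62 in cirrhosis and 2 in control, had Hgf and Kit at 14.8 CPM each (7.09 to 27.2) and Kitl at 23.7 CPM (13.5 to 38.4) in cirrhosis.

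**Figure D4:**
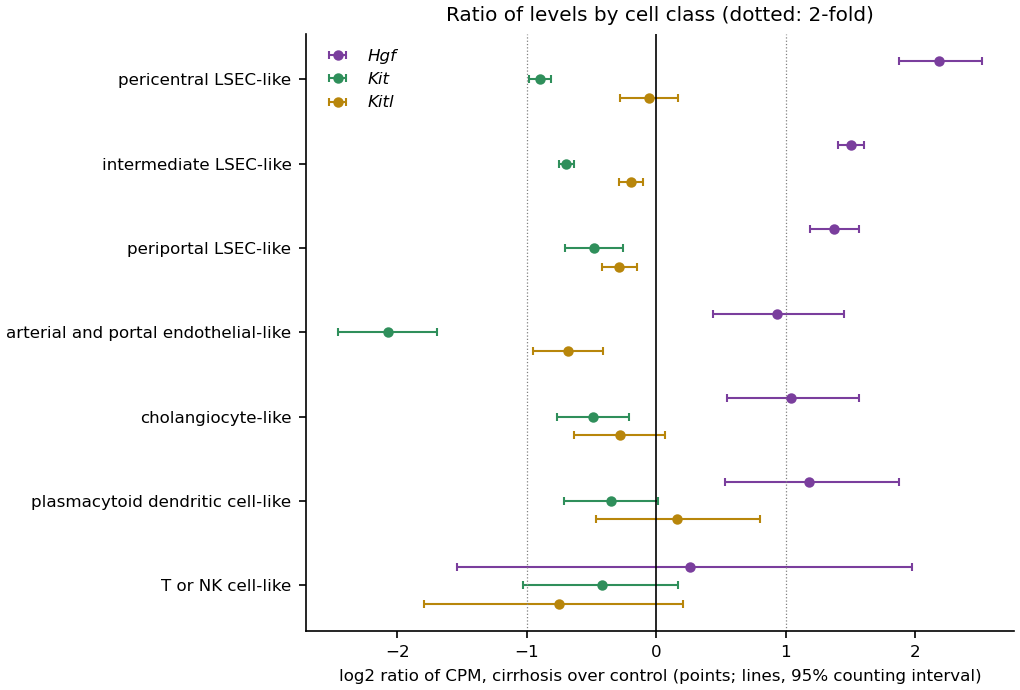
Log2 ratio of CPM, cirrhosis over control, for Hgf (purple), Kit (green) and Kitl (yellow) in 7 cell classes with at least 50 cells per library, with points for the ratio, lines for the 95% counting interval and dotted lines at 2-fold. Hgf lies between 0.93 and 2.19 in the 4 endothelial classes shown, and Kit between -2.07 and -0.48.

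Cells outside the endothelium also held UMIs of the 3 genes, and for Kit some of these classes stood above periportal LSEC-like cells. T or NK cell-like cells (226 control and 154 cirrhosis cells, median 6496.5 and 5920 UMIs), taken as the measure of free RNA, had Hgf at 4.97 and 5.97 CPM, Kit at 47.8 and 35.8 CPM and Kitl at 21.7 and 12.9 CPM. After thinning, 1.37% of control and 0.0% of 145 cirrhosis T or NK cell-like cells held Hgf, with an upper bound of 2.51% for the count of 0. Kit was found in 8.68% and 6.21% of them, and Kitl in 4.11% and 2.76%. Within this class Kit was uneven: the cluster led by Trac and Cd8a had 26.8 CPM in control and 9.31 CPM in cirrhosis, and the cluster led by Ncr1 and Xcl1, genes of NK cells, had 102 and 66.2 CPM. Kit in periportal LSEC-like cells (88.0 and 63.2 CPM) and in arterial and portal cells of cirrhosis (38.7 CPM) lay between the levels of these clusters. B cell-like cells, 47 in control and 124 in cirrhosis, had Kit at 55.1 CPM (29.4 to 94.3) and 16.6 CPM (7.58 to 31.5). Whether Kit in periportal, arterial and portal cells stands above background by level therefore depends on the class taken as background. Whether the Ncr1-led cluster holds free RNA alone was not tested. After thinning, the share of periportal cells with Kit was above the pooled T or NK cell-like share in both libraries. In cirrhosis the intervals of these 2 shares overlapped (10.5 to 16.7 and 2.88 to 11.5). The share of arterial and portal cells of cirrhosis was 5.61%, close to the 6.21% of T or NK cell-like cells.

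Kit stood above the T or NK cell-like level, though near that of the Ncr1-led cluster, in cholangiocyte-like cells, at 104 CPM in control (89.5 to 119.6) and 74.0 CPM in cirrhosis (65.0 to 83.9), and in plasmacytoid dendritic cell-like cells, at 123 CPM (102 to 147) and 96.7 CPM (81.2 to 114). In thinned cells this was 23.6% and 19.5% of cholangiocyte-like cells and 18.5% and 21.8% of plasmacytoid dendritic cell-like cells. Hgf stood at 23.5 CPM (17.0 to 31.6) and 48.4 CPM (41.2 to 56.6) in cholangiocyte-like cells, and at 26.3 CPM (17.2 to 38.5) and 59.6 CPM (47.6 to 73.7) in plasmacytoid dendritic cell-like cells, so that its ratio between the libraries had the direction seen in LSEC-like cells. Kitl stood at 63.4 and 52.1 CPM in cholangiocyte-like and 36.4 and 40.6 CPM in plasmacytoid dendritic cell-like cells.

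Kupffer cell-like cells, the resident macrophages, had Hgf at 25.1 CPM in control (18.2 to 33.6) and 28.5 CPM in cirrhosis (21.6 to 36.9), which overlapped. Kit was 83.2 and 32.4 CPM there and Kitl 43.9 and 15.0 CPM. Different clusters held most of this class in the 2 libraries, one led by Cd163 and Timd4 in control and one led by Mmp12 and Gpnmb in cirrhosis. The median depth of the whole class was 13132 UMIs in control and 2678 UMIs in cirrhosis. Monocyte or other myeloid-like cells of cirrhosis, 254 in number, had Hgf at 74.6 CPM (67.3 to 82.6), above every other non-endothelial class with 50 cells but cycling cells, beside Kit at 39.4 CPM and Kitl at 23.4 CPM. Hepatocyte-like cells of cirrhosis had Hgf at 42.6 CPM, Kit at 46.6 CPM and Kitl at 30.4 CPM. The 60 control hepatocyte-like cells had a median of 672 UMIs and 0 UMIs of Hgf, which allows up to 37.1 CPM. Kitl had 10 UMIs there, or 124 CPM (59.2 to 227), and Kit had 4 UMIs. The 43 control cells of the monocyte or other myeloid-like class had Hgf at 36.2 CPM, Kit at 94.1 CPM and Kitl at 41.6 CPM. Dendritic cell-like cells, 48 in control and 77 in cirrhosis, had Hgf at 18.4 and 26.7 CPM, Kit at 115 and 39.2 CPM and Kitl at 32.3 and 24.3 CPM. B cell-like cells had Hgf at 0 UMIs in control (up to 12.7 CPM) and at 7.37 CPM in cirrhosis, and Kitl at 8.48 and 11.1 CPM. Cycling cells of any lineage, 53 in cirrhosis, had Hgf at 78.2 CPM, Kit at 83.6 CPM and Kitl at 58.9 CPM.

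Among endothelial clusters left without a name, the largest (445 control and 324 cirrhosis cells) was led by Dnm3os, Gm42418 and Lars2 and had a median of 3369 and 3608 UMIs. Hgf stood there at 170.4 CPM in control and 389.5 CPM in cirrhosis, the highest of any cluster in each library, beside Kit at 379 and 346 CPM and Kitl at 223 and 184 CPM. A cluster of 24 cirrhosis cells led by Igfbp3 and Sparcl1 had 0 UMIs of Hgf and Kitl at 152 CPM.

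Transcripts of other cell types moved with the libraries. In LSEC-like cells all 14 markers of stellate cells and fibroblasts, a known source of HGF, had UMIs in both libraries, with a sum of 219 CPM in control and 116 CPM in cirrhosis. The members did not all follow the sum: Lrat stood at 21.0 and 4.12 CPM and Dcn at 37.8 and 16.1 CPM, while Col1a1 had 3 UMIs in control and 76 UMIs, or 2.92 CPM, in cirrhosis. In LSEC-like cells with 0 UMIs of these 14 genes (in control 87 pericentral, 561 intermediate and 196 periportal cells, and in cirrhosis 126, 674 and 233), the log2 ratio of Hgf was 1.46, of Kit -0.72 and of Kitl -0.13. The 10 Kupffer cell markers summed to 84.8 and 233 CPM and the 12 hepatocyte markers to 388 and 648 CPM. The 9 markers of mast cells, which carry KIT, and of basophils summed to 109.6 CPM in control and 154 CPM in cirrhosis. Hdc, the histamine-forming enzyme, made up 109 and 154.3 CPM of these sums, 5 of the 9 were at 0 in control and 7 in cirrhosis, and Tpsb2, Tpsab1, Cma1, Mcpt4 and Mcpt8 were at 0 in both. Fos, an immediate-early gene, stood at 2378 CPM in control and 222 CPM in cirrhosis LSEC-like cells. In intermediate control cells below the median of the AP-1 counts, Hgf stood at 87.5 CPM and Kit at 384 CPM, and in those at or above it at 70.4 and 378 CPM. In pericentral control cells the same split gave Hgf at 42.0 CPM in 136 cells and 28.0 CPM in 207 cells, and Kit at 873 and 827 CPM. In periportal control cells it gave Hgf at 79.4 and 62.0 CPM and Kit at 94.0 and 80.4 CPM. The part of these differences in the ratios between libraries was not tested further.

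Met, the receptor of HGF, had 0 UMIs in control LSEC-like cells, which allows up to 0.146 CPM, and stood at 0.385 CPM in cirrhosis. It reached 32.2 and 37.5 CPM in cholangiocyte-like cells and 57.7 CPM in lymphatic endothelial-like cells of cirrhosis, and 4.73 CPM in hepatocyte-like cells of cirrhosis. Of the 10 genes of the ligand and its activation, Hgf alone was at a mean of 20 CPM in LSEC-like cells. Hgfac, the HGF activator protease, stood at 61.8 CPM in control (from 5 UMIs) and 38.6 CPM in cirrhosis hepatocyte-like cells, and Hpn, the protease hepsin, at 161 and 201 CPM in cholangiocyte-like and 139 CPM in cirrhosis hepatocyte-like cells. Spint1, an inhibitor of these proteases, stood at 113 and 103 CPM in cholangiocyte-like cells, and 56.5 CPM in cirrhosis dendritic cell-like cells. Spint2, its relative and the 1 measured of 4 inhibitors in LSEC-like cells, stood at 104 and 79.2 CPM there, with log2 ratios of -0.91 in pericentral, -0.29 in intermediate and -0.26 in periportal cells.

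Among 17 genes of the HGF receptor, its co-receptors and adaptors, 10 were measured in pooled LSEC-like cells, and 0 of these differed by 2-fold, which at 1.54% higher and 1.73% lower over all genes is near the background, with a median log2 ratio of 0.02. The farthest were Itga6, an integrin chain, at 79.9 and 132 CPM (log2 0.73), Ptpn11, the phosphatase SHP2, at 55.2 and 84.7 CPM (log2 0.62), and Nrp1, a co-receptor, at 1792 and 1203 CPM (log2 -0.57). In periportal cells alone Itga6 passed 2-fold, with a log2 ratio of 1.01.

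On the KIT side, 18 of 20 signalling genes were measured and 1 differed by 2-fold, beside 1.54% higher and 1.73% lower of all genes, with a median log2 ratio of 0.02. It was Socs1, a feedback inhibitor of cytokine signalling, at 123 CPM in control and 27.1 CPM in cirrhosis (log2 -2.18, -2.30 to -2.06), and it was lower in each zone. Socs1 was also a leading gene of the intermediate cluster that Fos, Fosb and Egr1 led. Next after Socs1 and Kit by size was Ptpn11 (log2 0.62), followed by Gab2, an adaptor (log2 0.57), and Sh2b2 (log2 0.48), and the kinases Lyn, Fyn and Jak2 had log2 ratios of 0.03, -0.03 and 0.07. Of the genes that act on the membrane-bound ligand, 2 of 6 were measured, Kitl itself and Adam17, a sheddase, at 60.5 and 63.9 CPM.

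Kit belongs to the class III receptor kinases, and of 13 such receptors and their ligands 4 were measured, of which Kit and Kitl are 2. Their median log2 ratio was -0.51. None of the 4 passed 2-fold (0 genes), which is near the background of 1.54% higher and 1.73% lower over all genes. With no minimum level the 13 genes had a median of -0.25. The others measured were Pdgfd, a ligand of PDGF receptors (30.6 and 20.6 CPM, log2 -0.57), and Csf1, the ligand of the macrophage receptor (107 and 77.7 CPM, log2 -0.46). The log2 ratio of Csf1 was -1.25 in pericentral and -0.13 in periportal cells. Of the other receptors of the class, Csf1r stood at 1591 and 1048 CPM in Kupffer cell-like cells, and Flt3 at 128 and 103 CPM in plasmacytoid dendritic cell-like and 172 CPM in cirrhosis dendritic cell-like cells. Of 10 regulators of Kit transcription 6 were measured, with a median of -0.03. Of these, 0 differed by 2-fold, again near the background of 1.54% higher and 1.73% lower over all genes. Ets1 stood at 745 and 1065 CPM (log2 0.52), Erg at 23.0 and 19.0 CPM (log2 -0.27) and Gata2 at 52.1 and 43.8 CPM (log2 -0.25).

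Of 14 genes of endothelial growth signals described in liver regeneration, 12 were measured, 3 were at least 2-fold higher and 3 at least 2-fold lower in cirrhosis, with a median log2 ratio of -0.15. Over all genes 1.54% were at least 2-fold higher and 1.73% at least 2-fold lower, and this list was assembled with results of these data known. Beside Hgf, the higher genes were Ackr3, an atypical chemokine receptor (15.5 and 49.2 CPM, log2 1.66), and Fgfr1, a fibroblast growth factor receptor (29.8 and 77.5 CPM, log2 1.38). The lower genes were Rspo3, an enhancer of Wnt signalling (63.8 and 5.54 CPM, log2 -3.53), Angpt2, an angiopoietin (30.1 and 13.9 CPM, log2 -1.12), and Wnt2 (log2 -1.10). Rspo3 and Wnt2 were among the markers that named zones, and Fgfr1, Angpt2 and Wnt2 were named after their values were seen, to complete the count. Central-vein-type cells, led by Rspo3 and Wnt9b, were not in this pool and numbered 25 in control and 309 in cirrhosis. Wnt2 stood at 719 and 564 CPM in them. The ratios of Rspo3 and Wnt2, and the count of lower genes, thus hold for the pool without that class. Of 4 other measured growth factor genes, Fgf1 was higher (17.9 and 45.7 CPM, log2 1.35) and Ctgf (136 and 56.7 CPM, log2 -1.26) and Hbegf (81.6 and 45.7 CPM, log2 -0.84) were lower. The fourth, Vegfc, a ligand of lymphatic growth, was higher (18.5 and 31.6 CPM, log2 0.77).

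**Figure D5:**
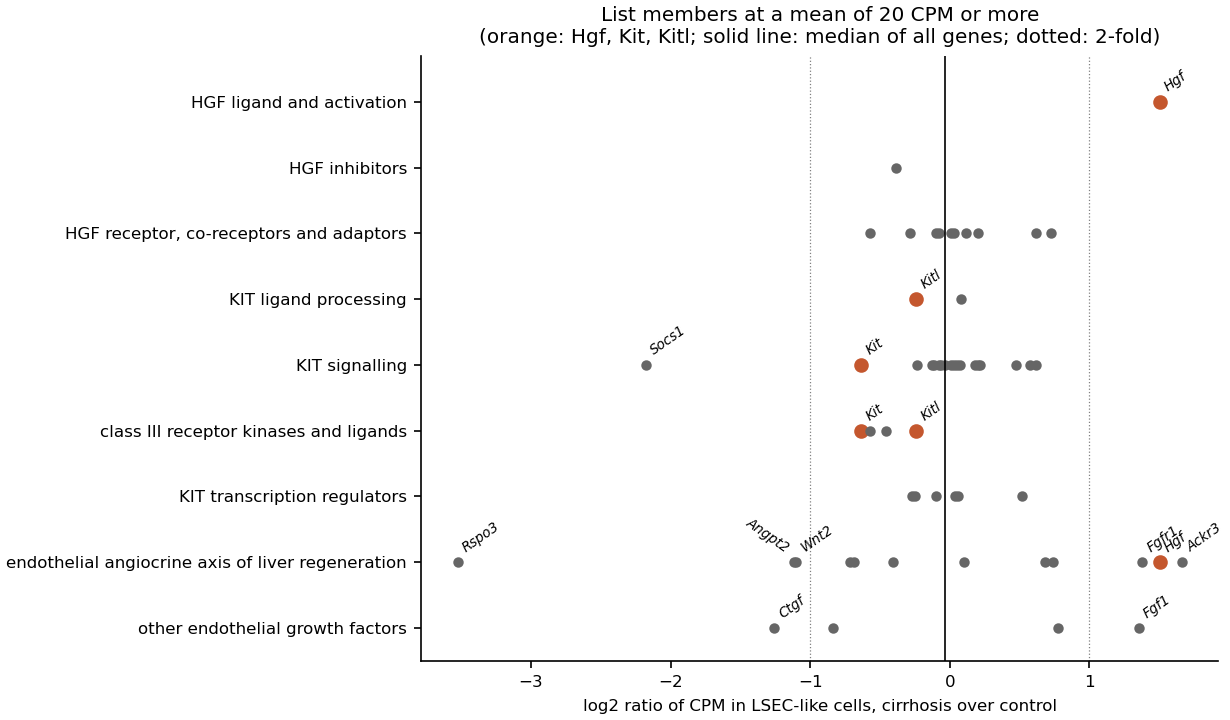
Log2 ratio of CPM in pooled LSEC-like cells, cirrhosis over control, of each list member whose mean reached 20 CPM, 1 row per gene list, with Hgf, Kit and Kitl in orange, the solid line at the median of all genes and dotted lines at 2-fold. Hgf stands at 1.51 in a row of its own, and Kit and Kitl lie left of the line at -0.64 and -0.24.

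Genes of like pattern were sought over 18 profiles, 9 classes in 2 libraries, among 7341 genes at a mean of 20 CPM. The profiles share libraries and depth, and no test was made. The 5 nearest to Hgf by Pearson correlation of log2(CPM + 1) were Loxl2, Bcl6b, Mxra7, Uaca and Tmem250-ps (0.96 to 0.94). Those nearest to Kit were Slc25a37, Ackr4, Wnt2, Dhrs7 and Ada (0.93 to 0.89), of which Wnt2 is a pericentral marker that took part in naming. Those nearest to Kitl were Lrrc58, Epas1, Acer2, Efna1 and Vangl1 (0.96 each), of which Efna1 is a periportal marker. Between the members themselves the correlations were lower, at 0.41 for Hgf and Kit, 0.40 for Hgf and Kitl and 0.46 for Kit and Kitl.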

How the data were processed

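The deposited tables hold raw UMI counts per gene symbol and barcode, whole numbers not normalized by the authors, of which no column was left unused (0 columns). Cell Ranger and the mm10 build are named in the submitters' processing notes, and any barcode filter is not given in the sources used here; the lowest total was 500 UMIs in both tables. Barcodes with under 500 UMIs, under 300 genes, 20% or more mitochondrial counts or over 5% erythroid marker counts were removed (475 control, 666 cirrhosis). Doublets were the highest-scoring 0.8% per 1000 barcodes against simulated doublets (214 control, 470 cirrhosis). Cells were clustered with scanpy 1.11.5 and leidenalg 0.10.2 (2000 variable genes, 30 components, 20 neighbours, resolution 0.5), and the endothelial part was clustered a second time, each library scaled alone. Cells in which markers of another type made up over 0.5% of UMIs did not enter that step. A zone or vessel name needed a mean marker log2 fold of 0.4 and 66% of markers above the other clusters. These thresholds were set after the data were seen, and the genes, lists and markers were chosen with earlier results of these data known. The intermediate class joins 2 clusters, of which 1 is led by Nfkbiz, Fosb and Fos, immediate-early and stress genes.

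UMIs were summed per class and library and expressed as CPM, with exact Poisson intervals, exact conditional binomial intervals for ratios and Clopper-Pearson intervals for shares of cells (scipy 1.17.1). The interval of the ratio was tested on simulated data. For 0 UMIs the upper limit is 3 counts for CPM, and the upper Clopper-Pearson bound for a share. A class needed 50 cells per library to be compared. Genes named were Hgf, Kit and Kitl in the classes described, and of each list the 3 members at a mean of 20 CPM with the largest log2 ratio. Met, Hgfac, Hpn, Spint1, Spint2 and class III receptors were added where at 20 CPM or more. Any further gene was picked with its values in view. The alternatives were other filters, resolutions, scalings and ways of setting zones.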

Additional observations from a re-analysis of the deposited data

How the results depend on the processing

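No direction reversed under 13 alternatives for the ratio between libraries and 10 for the ratio between zones. The log2 ratio of cirrhosis over control ranged from 1.31 to 1.69 for Hgf, -0.72 to -0.55 for Kit and -0.36 to -0.13 for Kitl. A ratio that left its counting interval is given here, and the cause was not tested. For Hgf it was 1.40 at a first-step resolution of 1.0, 1.33 with cells holding other types' transcripts, 1.69 with zones weighted equally, 1.31 with control cells of low AP-1 counts and 1.39 with central-vein-type cells counted as pericentral. For Kit it was, in the same order, -0.56, -0.55, -0.69, -0.56 and -0.57, and it was also -0.69 at 1000 UMIs and under 10% mitochondrial counts, -0.72 in cells without stellate markers, -0.57 under median of ratios scaling, -0.56 with doublets, -0.56 at a second-step resolution of 0.9 and -0.55 with the 3 genes among the clustering genes, where no periportal class was found. For Kitl it was -0.13 without stellate markers and -0.36 with low AP-1 counts.

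Pericentral over periportal, zones by 3 equal parts of the score gave -0.77 for Hgf, 2.20 for Kit and -0.83 for Kitl in control, and -0.44 for Hgf and 1.29 for Kit in cirrhosis. With doublets kept, control values were -1.50 for Hgf and -1.55 for Kitl, and cirrhosis values -0.56 and -0.68. Kitl in control was -1.68 without stellate markers and -1.41 at resolution 1.0. In cirrhosis Kitl was -0.67 at resolution 1.0, -0.68 at 0.9, -0.62 with other types' transcripts and -0.63 with central-vein-type cells. Hgf in cirrhosis was -0.48 at 0.9 and -0.63 with central-vein-type cells, and Kit 3.38 with other types' transcripts and 2.67 with central-vein-type cells. Counting central-vein-type cells as pericentral, or unnamed clusters as intermediate, was chosen after seeing the data. No paired analysis was possible because each group has 1 library.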
